A study of Vitis vinifera with 16 samples.

Results

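In leaves of the grapevine cultivar Garnacha Blanca, 291 of the 30661 genes of the deposited expression table were raised 24 h after spraying with either form of Bacillus UdG, and stayed close to the control after the plant extract Akivi. The table holds FPKM, the fragments of each gene scaled to its length and to all fragments that a library has on genes. The members were selected on these same values, taken as log2(FPKM + 0.1) and averaged over the 4 libraries of each group. Lyophilized (BL) and fresh (BF) Bacillus each had to lie at least 1 above the non-treated control (NTC), which is a doubling on this scale, and Akivi (Aki) within 0.7 of it. The lowest of the 8 Bacillus libraries also had to reach the highest NTC library, and the mean in BL had to be at least 1 FPKM. The rises over NTC given here therefore describe the choice and carry no test. Unless another scale is named, a difference is one of means of log2(FPKM + 0.1), and values of single libraries are listed from replicate 1 to replicate 4.

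The plants were Garnacha Blanca vines on the rootstock 110R, grown in a greenhouse and sprayed on both leaf surfaces, and each of the 16 libraries pooled 2 leaves from each of 5 plants. Aki plants received the extract of Dittrichia viscosa at 0.521 g/L, BL and BF plants received Bacillus velezensis strain UdG at one and the same cell density, and NTC plants received water. The BL cells came from a bioreactor with a modified medium and were freeze-dried. The BF cells came from a flask and were concentrated in their own culture supernatant, and NTC received neither medium nor carrier, so that these and the bacteria cannot be told apart. The study's methods describe randomized blocks that correspond to the treatments, so block and treatment cannot be told apart. The libraries held between 11078501 and 16991936 fragments, and the study itself left out 1 library of each group (Aki_R1, BL_R1, BF_R1 and NTC_R3), which are kept here. Whole leaves were measured, so more RNA per cell and more cells of a type cannot be told apart.

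Beneficial bacteria on a leaf are perceived through receptors for conserved microbial molecules and through the metabolites they secrete, which in the genus Bacillus include cyclic lipopeptides. Early leaf responses to such contact are known to involve calcium and kinase signalling, transcription factors of the WRKY and MYB families, hormone turnover and changes in the cell wall. Pectin, a main polymer of that wall, is a first target of the enzymes of fungi such as Botrytis, and plants hold inhibitor proteins against some of them.

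The first condition met by both Bacillus forms, a difference of at least 1, held for 599 genes, compared with 1181 genes for BL and 946 for BF taken alone. Separation of the Bacillus from the NTC libraries left 396 of them and the minimum level in BL left 332. Of these 332 genes, 39 were set aside because Aki lay 0.7 or more above NTC and 2 because it lay as far below, which left the 291 members. They made up 0.949% of the table, and all 291 passed the filter of the model fitted across 20246 genes. The members just inside the limit of 1 had a smaller Bacillus difference of 1.00, and the closest genes outside it had 0.9983, 0.997 and 0.9964. On the side of Aki, the closest members inside the limit of 0.7 differed from NTC by 0.6959, 0.6931 and 0.6886 in size, and the closest genes outside it by 0.7041, 0.7184 and 0.7221.

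Sources used here gave a name or the word unknown for 16 of the members, and 275 carried an identifier alone. The study had picked 15 genes as candidate markers of a Bacillus treatment on these libraries, and 11 of them were members. Primer pairs for their RT-qPCR were the sequences at hand for these genes. They are shown for the 3 members with the largest rise and for the most abundant member. Each primer is written from 5′ to 3′, with no part marked:
Invertase/pectin methylesterase inhibitor forward: gctgcaagaaatgtggaatgc
Invertase/pectin methylesterase inhibitor reverse: tcgactcttgtgactttgttttcc
Unknown protein B3 forward: ccagacacgtctgactccac
Unknown protein B3 reverse: cagctccacggtaactcctg
PGIP1 forward: aggcgagtttcatggagcag
PGIP1 reverse: ggaattttcccacacaacctgt
Thiazole biosynthetic enzyme forward: tggccaggcctaatgtgaag
Thiazole biosynthetic enzyme reverse: aaccaaagcccagttggtga

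As the rule requires, the Bacillus libraries stood above the others for the members as a group. The median difference over the members was 1.35 for BL and 1.37 for BF, with highest values of 4.88 and 5.15, while the medians over all tested genes were 0.03 and -0.03. In single libraries, the median member lay between 1.27 and 1.47 above the NTC mean in BL, and between 1.35 and 1.47 in BF. It lay between 0.13 and 0.41 in Aki and between -0.03 and 0.13 in NTC. The BL and BF libraries overlapped, and both lay above each Aki library. Of the 4 libraries that the study left out, BL_R1 (1.27) and BF_R1 (1.35) were the lowest of their groups. NTC_R3 (0.13) was the highest of its group, and Aki_R1 (0.18) lay within the range of the other Aki libraries. In BF_R1 the median over all tested genes was -0.21, the lowest of the 16 libraries. Without BF_R1 the rule gave 339 genes, which held 284 of the members. With median-of-ratios scaling of the libraries it gave 279 genes, which held 268 of the members. The mean of the BF library medians less that of NTC was 1.4, became 1.42 without BF_R1 and stayed at 1.4 with that scaling. The part of BF_R1 in the members' values was not tested beyond these settings. The rise was mostly moderate: 72 members reached 1.5 in both forms, 19 reached 2 and 2 reached 3.

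**Figure D1:**
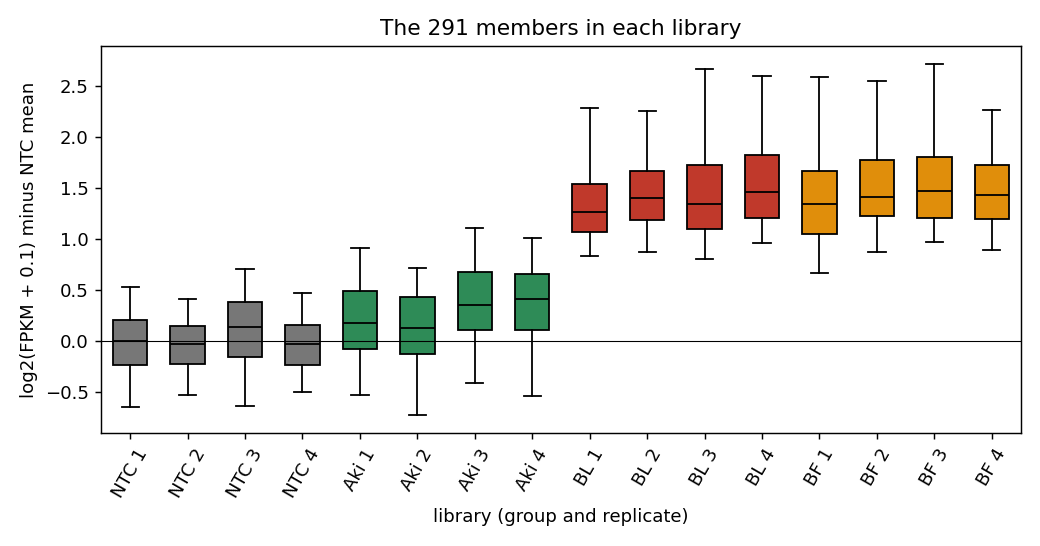
Each box gives the 291 members in 1 library, as log2(FPKM + 0.1) minus the mean of the 4 NTC libraries (boxes, quartiles with the median line; whiskers, 5th to 95th percentile; grey NTC, green Aki, red BL, orange BF). The medians of the 8 Bacillus libraries sit between 1.27 and 1.47, and those of the 4 Aki libraries between 0.13 and 0.41.

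**Figure D2:**
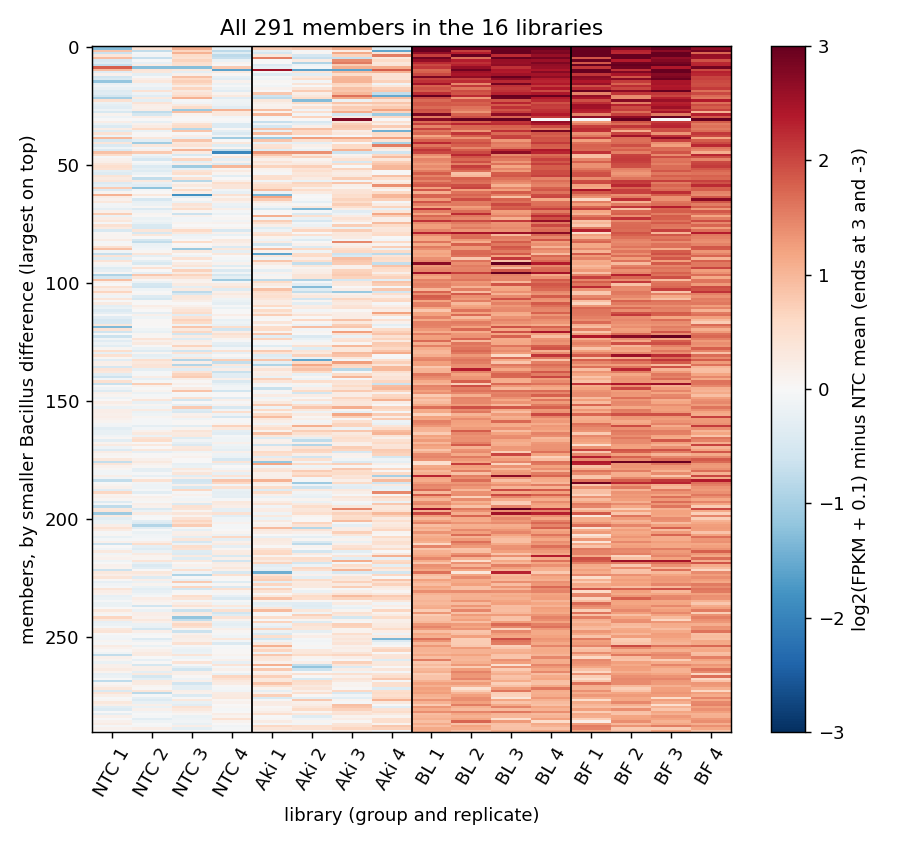
Each row is 1 of the 291 members and each column 1 of the 16 libraries, coloured by log2(FPKM + 0.1) minus the NTC mean and ordered by the smaller of the BL and BF differences. Red fills the 8 Bacillus columns from top to bottom, with 3 white cells in the 1 non-coding member at rank 32, which was at 0 in those libraries.

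The largest rise of all members was that of VIT_16s0022g00860 (marker B1), an invertase/pectin methylesterase inhibitor. Proteins of this family bind either enzymes that split sucrose or enzymes that remove methyl groups from pectin. Its 4 control libraries gave 0.0729, 0.629, 0.853 and 0.419 FPKM, compared with 18.5, 8.71, 18.9 and 15.2 FPKM in the BL libraries and 18.8, 21.8, 23 and 10.4 FPKM in the BF libraries. The Aki libraries gave 0.0843, 0.106, 1.01 and 0.148 FPKM. The 8 Bacillus libraries started at 8.71 FPKM and the others ended at 1.01 FPKM, in Aki_R3. The mean was 0.493 ± 0.332 FPKM in NTC, against 15.3 ± 4.71 in BL and 18.5 ± 5.69 in BF (SD, n = 4), a ratio to NTC of 31 for BL and 37.5 for BF. The NTC values rest on between 1 and 10 fragments per library, so these ratios are imprecise. Aki averaged 0.336 ± 0.448 FPKM, with a difference from NTC of -0.65. Its highest library was Aki_R3 and the other 3 lay in the lower part of the NTC range.

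The 3rd largest rise was that of VIT_13s0064g01370 (B6), the polygalacturonase inhibiting protein PGIP1. PGIPs are leucine-rich repeat proteins of the cell wall that bind the pectin-cutting polygalacturonases of fungi, and the grapevine protein is known for limiting damage by Botrytis. BL libraries held 3.12, 1.14, 2.48 and 1.93 FPKM and BF libraries 2.64, 1.36, 1.78 and 2.1 FPKM. Without Bacillus, 0.144, 0.181, 0.245 and 0 FPKM were measured under Aki and 0.434, 0.0765, 0.363 and 0.0715 FPKM under NTC. The lowest Bacillus library had 1.14 FPKM and the highest of the others 0.434 FPKM, while Aki_R4 had no fragment. The means were 0.236 ± 0.19 FPKM for NTC and 0.142 ± 0.104 for Aki, against 2.17 ± 0.841 for BL and 1.97 ± 0.54 for BF (SD, n = 4). With at most 7 fragments in an NTC library and 14 to 53 in a Bacillus library, PGIP1 remained a scarce transcript in every group.

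Another wall-related member was VIT_01s0011g01980 (B9), the fasciclin-like arabinogalactan protein FLA21, which belongs to a class of glycoproteins of the cell surface. In NTC the libraries read 1.4, 2.28, 1.48 and 2.18 FPKM. Those of Aki read 1.73, 2.37, 3.57 and 3.8 FPKM, those of BL 6.47, 11, 9.77 and 12.6 FPKM and those of BF 17.2, 12.9, 20.5 and 9.38 FPKM. The lowest Bacillus library, at 6.47 FPKM, stood above the highest Aki library at 3.8 FPKM. The differences from NTC were 2.37 for BL, 2.93 for BF and 0.58 for Aki. The identifier with the preceding locus number, which no source used here names, was a member as well, with a mean of 5.29 FPKM for NTC and 5.73 for Aki that compared with 27.6 for BL and 28.4 for BF. Aki differed from NTC by 0.07 in that gene, against 0.58 in FLA21.

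Among the genes of hormone metabolism and response, VIT_03s0091g00310 (B8) encodes the auxin-conjugating enzyme GH3.8. Enzymes of this family attach amino acids to auxin and so lower its free level. Per library, BF leaves showed 1.74, 3.67, 3.58 and 2.33 FPKM and BL leaves 2.29, 2.2, 2.96 and 3.42 FPKM. The water-sprayed leaves showed 0.294, 0.327, 0.62 and 0.441 FPKM, and the Akivi leaves 0.409, 0.171, 1.4 and 0.537 FPKM. Aki_R3, at 1.4 FPKM, came close to the lowest Bacillus value of 1.74 in BF_R1, and the other Aki libraries lay within or below the NTC range. The differences from NTC were 2.46 for BL and 2.47 for BF, which was the closest match of both forms among the annotated members.

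VIT_14s0068g01160 (B4) is annotated as the cytokinin-repressed protein CR9, a name that refers to a transcript lowered by the hormone cytokinin. Libraries of NTC stood at 1.25, 0.883, 1.47 and 0.515 FPKM, and those of Aki at 1.24, 0.651, 1.59 and 2.99 FPKM. Under Bacillus the values were 4.42, 9.87, 4.96 and 6.36 FPKM (BL) and 12.3, 9.39, 15.3 and 6.37 FPKM (BF). The Bacillus libraries started at 4.42 FPKM, and Aki_R4 was the highest of the others at 2.99 FPKM. The difference from NTC was 2.54 for BL and 3.29 for BF. BF had the higher mean, but its lowest library (6.37 FPKM) lay under the highest BL library (9.87 FPKM).

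Of the genes the study annotates, 2 have abscisic acid or dehydration in their description, and both were members. Other genes that the study files under abscisic acid signalling or water deprivation, namely the pathogenesis protein PR10, annexin ANN4 and 3 histone H4 genes, were not members. PR10 differed from NTC by 1.32 in BL and 0.66 in BF. The others lay below NTC in both forms. The histone H4 genes differed by -1.24, -1.41 and -0.79 in BL and by -0.49, -0.76 and -0.35 in BF. ANN4 differed by -0.30 in BL and -0.40 in BF. VIT_13s0067g02130 (B15), the dehydration-induced protein ERD15, is a small acidic protein that in Arabidopsis dampens abscisic acid signalling. Water controls had 16.9, 17.8, 29.5 and 17.5 FPKM and Akivi leaves 19.7, 26.1, 31.2 and 18.4 FPKM. The lyophilized form gave 113, 54.2, 145 and 105 FPKM, the fresh form 120.3, 67.6, 109.8 and 76 FPKM. It rose from 20.4 ± 6.06 FPKM in NTC to 104 ± 37.6 in BL and 93.4 ± 25.6 in BF (SD, n = 4), and was the 18th most abundant member in BL. The second gene, VIT_13s0067g01940, encodes an abscisic acid receptor of the PYL family, proteins that bind the hormone and then block its phosphatase repressors. Its 4 control libraries gave 2.41, 3.08, 4.87 and 2.97 FPKM, compared with 12.1, 7.76, 7.72 and 12.1 FPKM in the BL libraries and 17.8, 13.7, 10.7 and 11.6 FPKM in the BF libraries. The Aki libraries gave 6.17, 4.72, 4.27 and 3.37 FPKM. The lowest Bacillus value was 7.72 FPKM and the highest Aki value 6.17 FPKM, in Aki_R1, above every NTC library. Its differences from NTC were 1.55 for BL, 2.00 for BF and 0.48 for Aki.

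Of the annotated members, 2 were transcription factors, and in both the Aki libraries reached into the Bacillus libraries. VIT_08s0058g00690 is annotated as WRKY33, whose counterpart in Arabidopsis is required for resistance to Botrytis. BL libraries held 4.61, 4.62, 8.14 and 11.9 FPKM and BF libraries 3.84, 5.2, 7.84 and 5.24 FPKM. Without Bacillus, 2.22, 2.23, 5.05 and 3.5 FPKM were measured under Aki and 1.33, 1.77, 3.28 and 2.44 FPKM under NTC. The lowest Bacillus value, 3.84 FPKM, was under the highest Aki value of 5.05 FPKM in Aki_R3, so these groups overlapped. The differences from NTC were 1.65 for BL, 1.32 for BF and 0.53 for Aki. VIT_05s0049g01020 is annotated as Myb domain protein 14, of a large family of plant regulators. In NTC the libraries read 0.358, 0.189, 0.599 and 0.471 FPKM. Those of Aki read 0.474, 0.372, 1.21 and 0.622 FPKM, those of BL 1.36, 0.941, 1.58 and 1.06 FPKM and those of BF 1.51, 1.17, 1.17 and 1.13 FPKM. Here too Aki_R3, at 1.21 FPKM, lay among the Bacillus libraries, and the NTC values rest on 3 to 10 fragments.

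In metabolism, VIT_10s0116g00530 (B12) was by far the most abundant member. It encodes the thiazole biosynthetic enzyme of the chloroplast, which makes the thiazole part of thiamine (vitamin B1). Per library, BF leaves showed 1972, 1662, 1758 and 1318 FPKM and BL leaves 1200, 1211, 1218 and 1440 FPKM. The water-sprayed leaves showed 279, 385, 405 and 299 FPKM, and the Akivi leaves 362, 366, 457 and 518 FPKM. The mean rose from 342 ± 62.3 FPKM in NTC to 1267 ± 115 in BL and 1677 ± 272 in BF (SD, n = 4), a ratio of 3.71 and 4.91. Aki averaged 426 ± 75.4 FPKM, and its highest library, at 517.6 FPKM, stood below the lowest Bacillus library at 1200 FPKM. Between 5101 and 33895 fragments per library lay behind these values, the deepest coverage of any named member.

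Polyphenol oxidase, VIT_00s0480g00060 (B13), oxidises phenols to quinones and is known for the browning of wounded leaves. Libraries of NTC stood at 8.63, 5.9, 5.99 and 7.6 FPKM, and those of Aki at 8.38, 5.87, 10 and 6.75 FPKM. Under Bacillus the values were 26.1, 20.8, 21.9 and 21.7 FPKM (BL) and 20.3, 14.7, 21.2 and 25.6 FPKM (BF). Aki and NTC overlapped, and Aki differed from NTC by 0.13, while BL differed by 1.68 and BF by 1.52. The next locus number was an unannotated member with a mean of 14.98 FPKM for NTC and 16.8 for Aki, against 35.3 for BL and 40.8 for BF. Only uniquely mapping reads were counted, and how alike these loci are in sequence was not tested. VIT_02s0025g02510, the metal-nicotianamine transporter YSL1, belongs to a family that moves iron and other metals bound to nicotianamine. Water controls had 1.15, 0.922, 0.948 and 0.753 FPKM and Akivi leaves 1.12, 0.726, 1.14 and 0.915 FPKM. The lyophilized form gave 2.87, 1.92, 2.85 and 3.63 FPKM, the fresh form 1.54, 2.93, 2.95 and 3.02 FPKM. Its Aki difference, 0.04, was the smallest among the annotated members, against 1.46 for BL and 1.34 for BF.

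The remaining annotated members have other roles or none that is known. VIT_00s0992g00020, the class P heat shock protein HSP26.5-P, is a small chaperone. Its 4 control libraries gave 15.1, 18.7, 21.4 and 15.1 FPKM, compared with 39.5, 42.1, 46.4 and 48.6 FPKM in the BL libraries and 57.5, 56.6, 50.1 and 49.2 FPKM in the BF libraries. The Aki libraries gave 17.9, 21.1, 24 and 23 FPKM. All 4 BL libraries lay below all 4 BF libraries, and the lowest Bacillus library had 39.5 FPKM, against at most 24.0 FPKM elsewhere. VIT_09s0002g04280 (B7) is annotated as the dynein light chain LC6, with the flagellar outer arm in its description. BL libraries held 68.4, 61, 92 and 60.8 FPKM and BF libraries 62.3, 35.3, 67.1 and 38.9 FPKM. Without Bacillus, 9.29, 11.6, 19 and 13.2 FPKM were measured under Aki and 6.29, 9.21, 17.6 and 7.96 FPKM under NTC. NTC_R3, at 17.6 FPKM, and Aki_R3, at 19.0 FPKM, were the highest of their groups and still below the lowest Bacillus library.

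The proteins of unknown function included the gene with the 2nd largest rise, VIT_16s0100g00740 (B3). In NTC the libraries read 0.0803, 0.495, 0.846 and 0.277 FPKM. Those of Aki read 0.651, 0.702, 0.873 and 0.244 FPKM, those of BL 3.73, 3.38, 7.86 and 5.61 FPKM and those of BF 6.16, 2.98, 4.83 and 2.72 FPKM. The Bacillus libraries started at 2.72 FPKM, above the highest of the others at 0.873 FPKM, with 1 to 9 fragments in each NTC library. VIT_01s0026g02740 (B10) was more abundant. Per library, BF leaves showed 39.8, 33.6, 35.7 and 20.3 FPKM and BL leaves 16.3, 20.8, 26.2 and 25.9 FPKM. The water-sprayed leaves showed 2.46, 4.83, 5.7 and 4.08 FPKM, and the Akivi leaves 3.07, 3.68, 6.99 and 5.38 FPKM. It differed from NTC by 2.40 in BL, by 2.91 in BF and by 0.15 in Aki, and the highest Aki library, at 6.99 FPKM, lay below the lowest Bacillus library at 16.3 FPKM. Over the 16 annotated members, all 8 Bacillus libraries lay above all 4 Aki libraries in 14, the exceptions being WRKY33 and Myb domain protein 14. The same held in 80.8% of all members and in 5.34% of all tested genes. The rule favours this separation, so the count describes the choice.

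**Figure D3:**
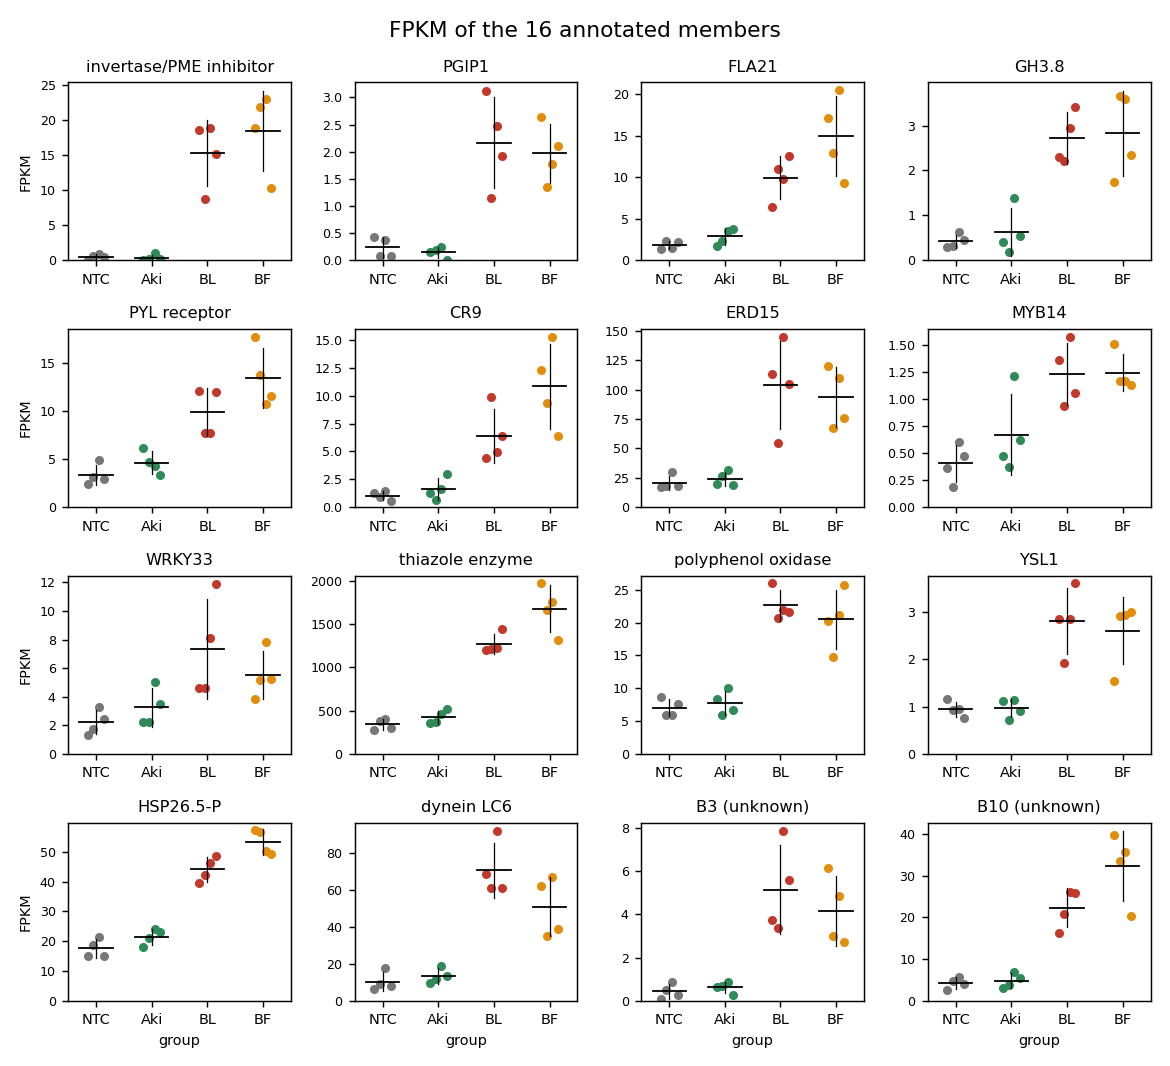
FPKM of the 16 annotated members in each library (points), by group, with the mean (line) and SD (bar) of 4 libraries; each panel has its own linear axis from 0. The BL and BF points lie above the NTC points in every panel, while single Aki points reach them for WRKY33 and MYB14 (Myb domain protein 14), both in Aki_R3.

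The 275 members without a description reached lower highest values than the annotated ones. Their median difference was 1.33 for BL and 1.36 for BF, with highest values of 3.17 and 2.84. Of the 19 members that reached 2 in both forms, 9 were annotated, and the study had chosen its markers on these samples. The unannotated gene with the largest smaller difference was VIT_03s0063g01380. Libraries of NTC stood at 13.5, 20.1, 43.6 and 16.4 FPKM, and those of Aki at 14.6, 22, 46.2 and 28 FPKM. Under Bacillus the values were 131, 108, 168 and 149.9 FPKM (BL) and 169, 101, 189.7 and 70.2 FPKM (BF). Its highest NTC library, NTC_R3, and highest Aki library, Aki_R3, stood at 43.6 and 46.2 FPKM, and the lowest Bacillus library at 70.2 FPKM. Of the 8 most abundant members in BL, 7 had no description, with means from 61.6 to 155.1 FPKM for NTC and from 66.5 to 208 for Aki, against 164.9 to 385 for BL and 134.8 to 505 for BF.

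Levels spread widely among the members, with a median in BL of 6.42 FPKM and quartiles of 2.00 and 23.5 FPKM. In NTC the median was 1.93 FPKM. In BL, 18 members reached 100 FPKM, 116 reached 10 FPKM and 73 lay under 2 FPKM. In 4 members no NTC library held more than 3 fragments, so that no fold is given for them. The 1 of these with no fragment in any NTC library is the only non-coding identifier of the list. It was also at 0 in 3 of the 8 Bacillus libraries and met the separation only as a tie at 0, which shows no separation. In the other 290 members, the lowest Bacillus library lay above the highest NTC library. The median gap between those 2 libraries was 0.56 on the log2 scale, and 31 members had a gap of at least 1.

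Gene length and position were not used by the rule. The length that fits the FPKM steps had a median of 1559 bases over the members and 1339 bases over all tested genes. By the chromosome number in the identifiers, members made up 1.44% of the tested genes, between 0.753% on chromosome 4 (8 of 1063) and 2.51% on chromosome 10 (16 of 637), with 28 of 1166 on chromosome 1. In 6 places, 2 members carried consecutive identifiers of the table. These included the pairs around FLA21 and polyphenol oxidase described above, and no run was longer than 2. These shares were not tested. The median SD between libraries, on the log2 scale, was higher over the members than over all tested genes within NTC (0.33 against 0.23), Aki (0.35 against 0.20) and BL (0.25 against 0.19), and lower within BF (0.28 against 0.30).

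Whether the form of the product mattered for these genes was tested directly between BL and BF, in the limma model over all 16 libraries. The rule did not use this contrast as such, but it required a rise in both forms. Genes raised by either form alone were thereby left out beforehand, which limits how many members could be called. Of the 291 members, 1 (0.344%) was called, compared with 0.133% of all 20246 tested genes (27 genes), so that a single gene makes up the excess. The member, VIT_05s0077g00510, has no description. Water controls had 7.98, 6.46, 9.28 and 7.05 FPKM and Akivi leaves 8.4, 8.92, 12.6 and 8.69 FPKM. The lyophilized form gave 44.2, 32.4, 65.5 and 43.8 FPKM, the fresh form 14.2, 21.1, 26.1 and 20 FPKM. Every BL library lay above every BF library, and the BL minus BF difference was 1.17 ± 0.21 (SE, n = 4) with an adjusted p of 0.0402 (limma, Benjamini-Hochberg). The call held when NTC_R3, Aki_R3, Aki_R4 or BF_R4 was left out and was lost without any one of the other 12 libraries (adjusted p of 0.0501 to 0.135 in limma). It was also lost with the 12 libraries retained by the study (adjusted p = 0.211), while the size of the difference stayed between 0.995 and 1.33.

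At an unadjusted p under 0.05, 32 members (11%) differed between BL and BF, compared with 12.9% of all tested genes. BL was higher in 130 members and BF in 161, with a median difference of -0.04, and the median over all tested genes was 0.04. The libraries of both forms did not overlap in 20 members (6.87%), close to the 5.52% of all tested genes. In 232 members (79.7%) the 95% interval of the difference lay within 1 in either direction, close to the 75.6% of all tested genes. The median half-width over the members was 0.53. These intervals are not adjusted for the number of genes, and a call needed a larger difference than this half-width. The difference was over 1 in size in 9 members, of which 1 was called. Differences of that size could thus be missed, so the forms are not shown to act alike. None of the 16 annotated members was called, the smallest adjusted p being 0.359 (limma).

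The intervals of the annotated members show what the 4 replicates can resolve. For the thiazole biosynthetic enzyme, BL minus BF was -0.39 (95% interval -0.71 to -0.08), and for HSP26.5-P it was -0.27 (95% interval -0.54 to -0.01). These were the 2 annotated members whose interval, not adjusted for the number of genes, left out 0, both lower in BL. CR9 had the largest difference, -0.75 (95% interval -1.61 to 0.11), followed by FLA21 with -0.57 (95% interval -1.18 to 0.04). The dynein light chain was the one most in favour of BL, with 0.50 (95% interval -0.12 to 1.13). The invertase/pectin methylesterase inhibitor, although raised most of all, had one of the widest intervals, -0.27 (95% interval -1.46 to 0.92), and PGIP1 had 0.09 (95% interval -0.91 to 1.08).

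**Figure D4:**
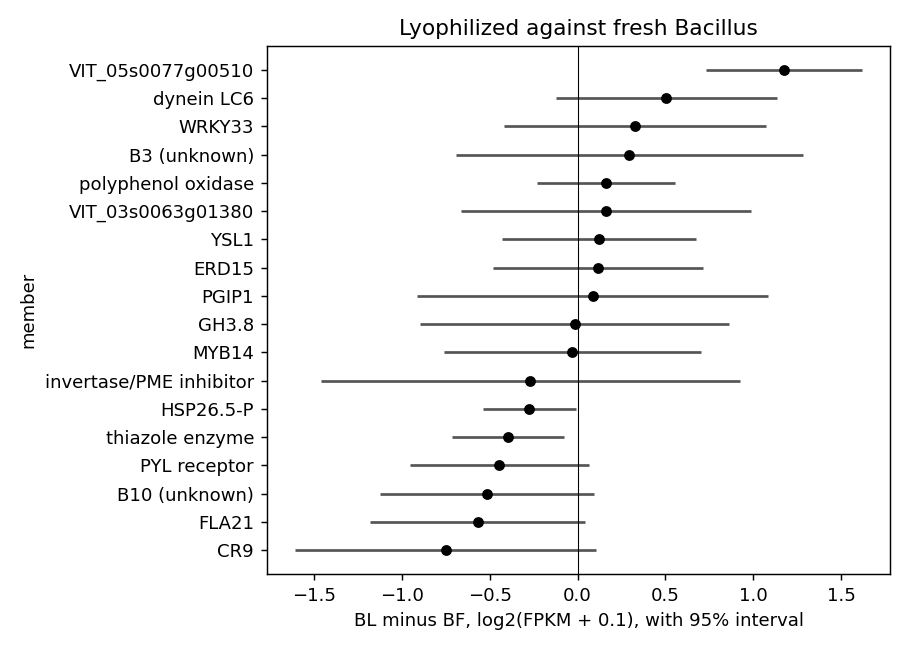
BL minus BF on the log2(FPKM + 0.1) scale for the 16 annotated and 2 unannotated members named in the text (points) with 95% intervals from limma that are not adjusted for the number of genes (lines). Only VIT_05s0077g00510 passed the adjusted threshold, at 1.17, while 14 of the 16 annotated intervals include 0.

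Akivi was the treatment the rule required to stay near NTC, and within that limit its values were not centred on 0. The Aki difference from NTC had a median of 0.29 over the members and lay above 0 in 243 of them (83.5%), whereas 50.6% of the tested genes within the same limit lay above 0. All 3 differences share the same 4 NTC libraries, which the rule also used, so this excess carries no test. By library, 103, 85, 148 and 143 members exceeded the highest NTC library in Aki_R1, Aki_R2, Aki_R3 and Aki_R4. In 49 members all 4 Aki libraries lay at or below the highest NTC library. The matching shares of all tested genes were not counted, so nothing is read from these counts. The invertase/pectin methylesterase inhibitor and PGIP1 were the annotated members with Aki on the lower side of NTC, at -0.65 and -0.42.

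Set directly against Aki, 240 members were called higher in BL (82.5%; 7.41% of all tested genes) and 253 higher in BF (86.9%; 7.66%), with 0 called lower (limma, adjusted p of 0.05 or less). The rule fixes the direction and a minimum size of these differences, so the counts describe the choice and nothing is read from them. The median difference was 1.11 for BL and 1.14 for BF. All 8 Bacillus libraries exceeded all 4 Aki libraries in 235 members (80.8%), compared with 5.34% of the tested genes, a separation that the rule likewise favours. With a minimum log2 difference of 1.4 added, the counts fell to 74 for BL and 75 for BF. Shares of all tested genes with this minimum were not counted, so nothing is read from the lower counts either.

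The 4 of the study's Bacillus markers that were not members show where the rule ends. VIT_06s0004g07210 (B2), a CONSTANS-like gene with a CCT motif, lay 4.75 above NTC in BL and 5.26 in BF, next to 4.88 and 5.15 for the top member. Its 4 control libraries gave 0.207, 0.702, 1.33 and 0.417 FPKM, compared with 13.1, 15.1, 21.5 and 22.1 FPKM in the BL libraries and 29.2, 27.5, 36.2 and 13.2 FPKM in the BF libraries. The Aki libraries gave 0.778, 2.94, 2.04 and 2.52 FPKM. It failed on Aki alone, with a difference of 1.59, although the highest Aki library lay below the lowest Bacillus library. The gene of NAC domain containing protein 2, VIT_07s0031g02610 (B14), a transcription factor, likewise failed on Aki at 1.10, beside 2.52 for BL and 2.24 for BF. The ferritin gene VIT_08s0058g00430 (B11), for an iron store of the plastid, failed on Aki (1.31) and because its lowest Bacillus library (17.1 FPKM) lay below NTC_R2 (24.8 FPKM). The 5'-adenylylsulfate reductase gene VIT_00s1490g00010 (B5), for a step of sulfate assimilation, moved the other way, from 47.1 ± 14 FPKM in the controls down to 7.42 ± 1.31 under BL and 4.18 ± 0.221 under BF (SD, n = 4).

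Related genes that the study names, and chose on these libraries, mostly fell outside the list. Of the 3 named ferritins none was a member, although all 3 were called higher in BL and in BF than in NTC (limma, adjusted p of 0.05 or less), as were 9.33% and 9.25% of all tested genes. The 3 xyloglucan endotransglucosylase/hydrolases, enzymes that rearrange the wall polymer xyloglucan, and the 3 genes of trehalose metabolism also gave no member. In each of these families all 3 were called higher in BL and 1 was called higher in BF. Of the 4 genes with heat shock in their description 1 was a member, and of the other 3, 2 were called higher in BL, 3 in BF and 1 in Aki, where 0.82% of all tested genes were called higher. Both peroxidases the study names were called higher in Aki, while 1 was called lower than NTC in BL and 2 in BF, as were 6.65% and 6.56% of all tested genes. Because the study selected these genes on these samples, the counts are not independent evidence of a direction.

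Membership depended on the libraries used. NTC_R3, which the study left out, held the highest NTC value in 123 of the 291 members. With the 12 libraries retained by the study, the rule gave 347 genes, which held 210 of the members (72.2% of the members and 60.5% of the 347). Over 22 other settings of the rule, including each library left out, 78 members met the rule in every one. GH3.8, ERD15, the PYL receptor, the thiazole biosynthetic enzyme, polyphenol oxidase, HSP26.5-P and B10 were members in all 22. FLA21, CR9, WRKY33, Myb domain protein 14, the dynein light chain, B3 and VIT_03s0063g01380 were not members with the 12 retained libraries. The invertase/pectin methylesterase inhibitor left the list without NTC_R1, without Aki_R3 and with a pseudocount of 0.01, its Aki difference lying close to the limit of 0.7.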

How the data were processed

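RNA of Garnacha Blanca leaves was sequenced in 16 libraries, 4 for each of Aki, BL, BF and NTC, from a stranded mRNA kit. The authors trimmed the reads with BBDuk (minimum base quality 25, minimum length 35), mapped them to the 12X Ensembl version of the PN40024 genome with STAR and counted uniquely mapping reads (MAPQ of 30 or more) on genes with featureCounts; the submitters' processing notes give CASAVA 1.8.2, FastQC 0.10.1, STAR 2.6 and featureCounts 1.6.1. The strand setting of the counting is not given in the sources used here. The deposited values are FPKM that the authors calculated with edgeR.

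From these FPKM, log2(FPKM + 0.1) was taken. A linear model of the 4 groups was fitted to all 16 libraries with limma 3.58.1 in R 4.3.3, with trend and robust moderation, over the 20246 genes that reached 0.5 FPKM in 3 or more libraries. A gene was called at 0.05 or less after Benjamini-Hochberg adjustment over all tested genes. Fold changes are on the log2(FPKM + 0.1) scale, which understates those of low genes. Whole fragments and gene lengths were rebuilt from the steps of the values for all 25310 genes above 0 (tolerance 0.001) and served only to give depths. For a 1 kb gene, 3 fragments equal 0.177 to 0.271 FPKM, depending on the library, and this covers counting error alone. The replicates are separate sets of plants per the labels. Columns of the table without a sample numbered 0. The fit was tried on simulated data with known BL against BF changes, placed only in well-covered genes and with the same spread setting for every gene. It therefore says nothing on the scarce members.

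The members and lists were chosen with earlier results of these data known. Genes were named if members and among the 12 with the largest smaller rise, named by the study, among the 8 most abundant in BL, called between BL and BF, or in a family list with 2 or more members. At most 2 of those that no source names were printed by identifier, here the one with the largest smaller rise and the one called between BL and BF. Keyword lists could be matched only to the study's descriptions of 102 genes, 86 of them not members and 85 of those tested. Leaf identity was not checked against marker genes, and promoters, motifs and proteins were not used here. Alternatives were the 12 retained libraries, pseudocounts of 1 and 0.01, no filter or 1 FPKM in 4 libraries, median-of-ratios scaling, a fit without trend and robust moderation, only the groups compared, a log2 minimum of 1.4, the replicate number as a block, and each library left out. Python 3.11.15 and pandas 2.3.3 were used for the tables.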

Additional observations from a re-analysis of the deposited data

Results flagged for a closer look

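In 76 groups of 4 libraries (the median member and the 18 named members, 4 groups each), a gap test for the most extreme library was passed 6 times, and about 1 in 20 groups pass it by chance. For the invertase/pectin methylesterase inhibitor, Aki_R3 stood at 1.01 FPKM against at most 0.148 FPKM in the other Aki libraries. ERD15 stood at 29.5 FPKM in NTC_R3, the library left out by the study, against at most 17.8 FPKM in the other NTC libraries. Myb domain protein 14 stood at 1.51 FPKM in BF_R1 and YSL1 at 1.54 FPKM in the same library, the first above and the second below the other BF libraries. The thiazole biosynthetic enzyme stood at 1440 FPKM in BL_R4, and VIT_05s0077g00510 at 12.6 FPKM in Aki_R3. The part of these libraries in the results was not tested beyond leaving each out in turn.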

How the results depend on the processing

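The list held 291 members, and the alternatives gave between 150 (pseudocount 1, of which 139 were members) and 356 genes (without the separation of the libraries). Leaving out 1 library gave 268 to 339 genes. The members' level, as the mean of the library medians less that of NTC, depended on the scale: it was 1.35 for BL and 1.4 for BF, became 1.03 and 1.07 with a pseudocount of 1, 1.44 and 1.48 with the 12 retained libraries, and 1.47 for BF with a pseudocount of 0.01. With 1 library left out it was 1.32 to 1.41 for BL, 1.38 to 1.46 for BF and 0.202 to 0.319 for Aki. These settings for the level were chosen after seeing the data.

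Between BL and BF 1 member was called, and 0 were called with the 12 retained libraries, with no filter on low values, without trend and robust moderation, with only the 2 groups compared and with the minimum of 1.4, and 0 to 2 with 1 library left out (2 without BF_R4). The cause was not tested. Calls against Aki numbered 208 to 250 for BL and 213 to 261 for BF with 1 library left out, and 74 and 75 with the minimum of 1.4. Shares of all tested genes under these settings were not counted. With the replicate number as a block, 1 member was called between BL and BF, 247 between Aki and BL and 258 between Aki and BF. The numbers mark different plants in each group. Deviations of libraries with the same number correlated between -0.35 and 0.37 (median 0.07), so the numbers were not taken as pairs, although 6 of the 8 BL and BF libraries correlated best with their own number. The BL minus BF difference changed sign under some alternative in 6 of the 18 named members, none of them called. Libraries of 11078501 to 16991936 fragments limit the low members most: in PGIP1, B3 and the invertase/pectin methylesterase inhibitor 10 or fewer fragments lay behind each NTC value.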

Other observations

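Beside the called gene VIT_05s0077g00510, the identifier with the next locus number is VIT_05s0077g00520, annotated by the study as a gibberellin 2-oxidase, an enzyme that inactivates gibberellins. It was looked at after its values were seen, is not a member, and moved with the other product. Its mean was 3.54 ± 1.1 FPKM under Aki and 0.453 ± 0.18 under NTC, beside 0.374 ± 0.172 under BL and 0.149 ± 0.167 under BF (SD, n = 4). The 4 Aki libraries lay between 2.58 and 4.94 FPKM, and the highest of the other 12 libraries had 0.672 FPKM.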
